A study of Mus musculus with 4 samples.

Results

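Erbb4, Cxcr4, Nxph1, Maf, Npy, Sst and Calb2 are 7 genes used to follow GABAergic interneurons of the forebrain as they leave their birthplace, move through the cortex and take on subtypes. They were matched by symbol among the 27998 genes of the files, each symbol once, and counted as unique molecular identifiers (UMIs, 1 per captured transcript) in every barcode, the droplet label that stands for a cell. The 4 libraries come from mouse embryos bred from heterozygous Nestin-GFP and homozygous DCX-mRFP parents, so that all embryos used carried both the GFP and the RFP reporter. Cortex or ganglionic eminence (GE) was dissociated at embryonic day E15.5 or E18.5, and cells with green fluorescence, which the labels call neural progenitor cells, were sorted. Droplet 3' libraries were made, and each of the 4 groups, a region at an age, held 1 library. The sources used here do not say how many embryos were pooled or of which sex. The title of the series asks which progenitor subpopulations and astrocyte lineages exist. Since each group had 1 library, no difference below has a replicate check or a test. All intervals are 95% intervals that cover counting error only.

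The ganglionic eminences of the ventral forebrain make GABAergic neurons, which carry the glutamate decarboxylases Gad1 and Gad2, and many of those neurons migrate tangentially into the cortex. Cells of the medial eminence use the transcription factors Nkx2-1 and then Lhx6 and give rise to the interneurons that later make somatostatin or parvalbumin, while the caudal eminence gives many of those that make calretinin. Migrating interneurons are steered by the chemokine Cxcl12 through its receptors Cxcr4 and Ackr3, and by neuregulins through the receptor Erbb4.

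Marker genes went against the region label of every library, and each deposited file is named for the region that its label does not give, so groups are written here as the library labelled cortex or GE. With those labelled cortex first and those labelled GE last, each at E15.5 and then at E18.5, an order kept below, the ventral factor Nkx2-1 stood at 269, 114, 1.0 and 1.77 counts per 1000000 UMIs (CPM). The dorsal factor Emx1 stood at 1.34, 1.22, 279 and 38.2 CPM. The sorted cells were not progenitors alone: Dcx, a marker of young neurons, lay between 197 and 316 CPM. After filtering, 1157, 3027, 870 and 1137 barcodes were used, with median depths of 16347, 8660, 23219 and 10087 UMIs, and any pair of libraries shared at most 7 barcodes. Barcodes with UMIs of both Xist, which female cells make, and Y-linked genes were 36%, 5.05%, 55.4% and 11.3% of these, so the E15.5 comparisons are given with and without them and the description leads with E18.5. The levels, shares and pair counts given by library below include them unless stated.

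Barcodes with at least 1 UMI of Gad1 or Gad2, called Gad cells below, numbered 850 of 1157, 1420 of 3027, 173 of 870 and 288 of 1137. Their CPM was set against that of all other barcodes of the same library. A member counts as measured with at least 20 CPM and at least 20 UMIs on 1 side, and as higher or lower from a 2-fold ratio on. At E18.5, 4 of 4 measured members (Erbb4, Maf, Npy, Nxph1) were higher in Gad cells of the library labelled cortex, where 2.67% of all measured genes were. In that labelled GE E18.5 it was 6 of 6 (these with Cxcr4 and Sst), against 3.63% of all genes. At E15.5 it was 4 of 4 in the library labelled cortex, against 2.62%, and 4 of 4 in that labelled GE, against 0.335%. Without the barcodes with Xist and Y-linked UMIs the E15.5 counts were 3 of 3 and 6 of 6. These counts lean on the minimum, since a gene low outside Gad cells is measured only if it is high in them. In the library labelled GE E15.5 Maf, Npy, Sst and Nxph1 were at 6.62, 1.88, 0.375 and 3.06 CPM in the others. Reaching 20 CPM in Gad cells thus already made each higher. In both libraries labelled cortex Cxcr4 fell below the minimum and was not counted (1.19-fold and 1.04-fold). Left out as well was Erbb4 in that labelled GE E15.5, at 11.1-fold.

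**Figure D1:**
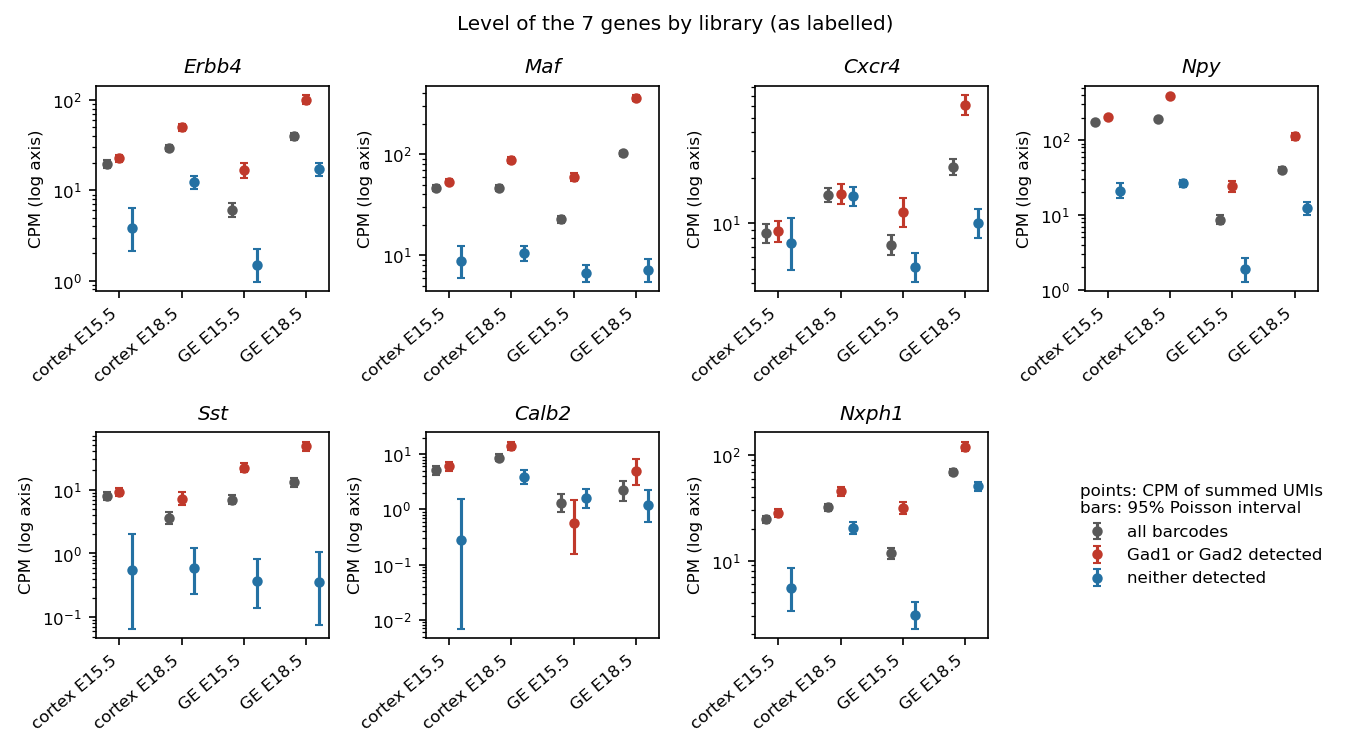
Summed level of each gene in CPM (log axis) in each of the 4 libraries, for all barcodes, Gad cells and barcodes without Gad1 and Gad2 UMIs; bars are 95% Poisson intervals. Maf and Npy separate Gad cells from the others in all 4 libraries, whereas Cxcr4 lies at 15.7 and 15.1 CPM in the library labelled cortex E18.5.

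Erbb4 (chr1:68032186-69108059, minus strand, GRCm38), the receptor tyrosine kinase that binds neuregulins, stood at 22.7, 49.95, 16.6 and 101 CPM in Gad cells. In the other barcodes it was 3.84, 12.3, 1.5 and 17.1 CPM. Both E18.5 libraries thus lay above both E15.5 libraries, with the library labelled GE E18.5 highest. Gad cells exceeded the others 4.05-fold in the library labelled cortex E18.5 and 5.94-fold in that labelled GE E18.5. To set libraries of different depth beside each other, each barcode was also thinned at random to 5000 UMIs, with shallower ones left out, which kept 850, 1101, 173 and 246 Gad cells. Without thinning 25.2%, 19.9%, 37.6% and 49.0% of Gad cells held Erbb4, and after it 8.12%, 10.1%, 8.09% and 35.8% did. In these shares Gad cells were still chosen at full depth, which in the library labelled GE E15.5, where their median was 40177 UMIs, takes in more barcodes than at equal depth. With Gad1 and Gad2 also read after thinning, Gad cells numbered 530, 828, 54 and 179, and 9.06%, 12.1%, 13.0% and 44.7% of them held Erbb4. The library labelled GE E18.5 had the largest share either way.

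Its neuregulin ligand Nrg1 stood at 9.72, 20.2, 48.4 and 63.8 CPM over all barcodes, higher in both libraries labelled GE. Erbb4 was also found outside the Gad cells, in barcodes with at least 5 UMIs of the oligodendrocyte precursor genes Olig1 and Pdgfra. Barcodes that also reached 5 UMIs of the excitatory genes or of the astrocyte and radial glia genes named below were left out. The classes of those genes were set in the same way. Erbb4 was detected in 17.8% of 180 such oligodendrocyte precursor gene barcodes (median depth 9089 UMIs) in the library labelled cortex E18.5 and in 19.6% of 271 (9743 UMIs) in that labelled GE E18.5. In the 61 barcodes of the library labelled GE E18.5 with at least 5 UMIs of the excitatory neuron genes Neurod2 and Neurod6 (8499 UMIs), which served as a background, none held Erbb4, which allows a share of barcodes with a UMI of up to 4.92% at this depth.

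Cxcr4 (chr1:128588199-128592293, minus strand, GRCm38), the chemokine receptor that keeps interneurons in their migratory streams, behaved differently in the 2 libraries of E18.5. In Gad cells it stood at 8.84, 15.7, 11.9 and 60.9 CPM, and in the other barcodes at 7.41, 15.1, 5.12 and 10.0 CPM. Gad cells and the rest were close in both libraries labelled cortex, with a ratio of 1.04 (0.835 to 1.29) at E18.5, where it was below the 20 CPM minimum. The ratio was 6.06 in the library labelled GE E18.5. After thinning, 3.53%, 5.72%, 4.05% and 29.3% of Gad cells held Cxcr4, and with the gate thinned too it was 4.34%, 6.28%, 5.56% and 35.7%. The library labelled GE E18.5 had the largest share in both.

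The level outside Gad cells lay partly in barcodes with at least 5 UMIs of the astrocyte and radial glia genes Slc1a3, Aldoc and Aqp4. Cxcr4 was found in 18.3% of 515 such barcodes (median depth 8123 UMIs) of the library labelled cortex E18.5 and in 13.0% of 253 (10023 UMIs) in that labelled GE E18.5. Oligodendrocyte precursor gene barcodes of similar depth held it in 1.11% and 0.738%. After thinning the astrocyte and radial glia shares were 12.3% and 3.0%. The ligand Cxcl12 stood at 0.580, 0.721, 47.2 and 12.9 CPM over all barcodes, near 0 in both libraries labelled cortex. Ackr3, the second receptor of Cxcl12, stood at 119 CPM in Gad cells of the library labelled cortex E18.5 and at 177 in those of GE E18.5, where Cxcr4 differed by more.

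The 250 bases before the RefSeq start of Cxcr4 and of Npy are shown because both genes differed between Gad cells of the E18.5 libraries, in opposite directions. A set of 5 motifs was searched on both strands in these 250 bases of each gene. They were TGACGTCA (the cyclic AMP response element, in 1.55% of the 32851 promoters of the table), TATAAA (12.4%), TAATTA (4.84%), GGGCGG (32.7%) and TGCTGAC (3.81%). Sequences are from RefSeq on GRCm38.p6, written 5′ to 3′ on the gene's strand, with matches in capitals. GGGCGG appears as CCGCCC where it lies on the other strand.
Cxcr4, chr1:128592300-128592549, minus strand: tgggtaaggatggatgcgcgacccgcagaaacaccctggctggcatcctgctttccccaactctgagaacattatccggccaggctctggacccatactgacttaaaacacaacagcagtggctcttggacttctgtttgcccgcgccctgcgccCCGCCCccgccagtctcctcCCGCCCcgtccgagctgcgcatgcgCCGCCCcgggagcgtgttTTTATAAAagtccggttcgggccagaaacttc
Npy, chr6:49822460-49822709, plus strand: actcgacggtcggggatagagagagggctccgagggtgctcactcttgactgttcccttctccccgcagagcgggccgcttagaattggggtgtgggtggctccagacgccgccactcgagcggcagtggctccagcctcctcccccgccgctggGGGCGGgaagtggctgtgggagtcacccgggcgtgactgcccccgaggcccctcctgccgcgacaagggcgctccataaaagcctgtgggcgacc
Cxcr4 held 2 overlapping TATAAA matches, whose first bases lie 32 and 30 bases before the start, and 3 GGGCGG matches, while Npy held 1 GGGCGG match. The table matched 5 of the 7 genes, and Maf and Calb2 were not among them. Nxph1 held 2 GGGCGG matches and Erbb4 no match to these motifs. No member held TAATTA or TGCTGAC in this window. A match describes letters only.

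Nxph1 (chr6:8948431-9249032, plus strand, GRCm38) encodes a secreted protein that binds neurexins. It stood at 28.3, 45.5, 31.8 and 121 CPM in Gad cells and at 5.49, 20.3, 3.06 and 50.8 CPM in the others. The level outside Gad cells was low at E15.5 and higher at E18.5, and the ratio of Gad cells to the rest was accordingly 5.15, 2.24, 10.4 and 2.38. At E18.5 oligodendrocyte precursor gene barcodes held it in 37.8% and 47.2%, or 27.7% and 32.5% after thinning, where none of the 61 excitatory gene barcodes of the library labelled GE E18.5 did. After thinning, 9.41%, 8.63%, 14.5% and 34.6% of Gad cells held Nxph1, and with the gate thinned too it was 10.7%, 10.0%, 24.1% and 43.0%. Nrxn3, a neurexin, stood at 319, 336, 32.6 and 178 CPM over all barcodes, lowest in the library labelled GE E15.5.

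Maf (chr8:115682942-115707794, minus strand, GRCm38), a transcription factor of interneurons from the medial eminence, stood at 53.5, 87.7, 59.5 and 361 CPM in Gad cells. In the other barcodes it was 8.79, 10.5, 6.62 and 7.14 CPM. The library labelled GE E18.5 was the highest in Gad cells, while the other barcodes of all 4 libraries lay close together. Gad cells exceeded the rest 8.37-fold (6.94 to 10.2) in the library labelled cortex E18.5 and 50.6-fold (39.0 to 67.0) in that labelled GE E18.5. Thinned, Maf was held by 12.7% and 11.8% of Gad cells of both ages labelled cortex, by 32 of 173 in that labelled GE E15.5 and by 51.2% in that labelled GE E18.5. With the gate thinned too it was 16.2%, 14.4%, 25.9% and 62.0%. Oligodendrocyte precursor gene barcodes held it in 0.556% and 1.48% at E18.5, unthinned.

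Npy (chr6:49822710-49829507, plus strand, GRCm38) encodes neuropeptide Y, a transmitter peptide of many cortical interneurons. It stood at 206, 385, 24.1 and 113 CPM in Gad cells and at 21.1, 26.6, 1.88 and 12.3 CPM in the others. Both libraries labelled cortex lay above both labelled GE, and Gad cells lay above the rest in each. Without the barcodes with Xist and Y-linked UMIs, Gad cells stood at 108, 364, 35.6 and 140 CPM. The library labelled GE E18.5 then lay above that labelled cortex E15.5. The ratio of Gad cells to the rest was 14.5 (12.9 to 16.3) in the library labelled cortex E18.5 and 9.18 in that labelled GE E18.5. There 1 Gad cell held 80 of the 446 Npy UMIs of the library, and without it the Gad cells stood at 86.9 CPM. After thinning, 187 of 850, 184 of 1101, 11 of 173 and 42 of 246 Gad cells held Npy. With the gate thinned too it was 25.7%, 21.1%, 13.0% and 21.2%, so the shares at E18.5 were close where the levels differed. The receptors Npy1r, Npy2r and Npy5r each stood at no more than 0.85 CPM over all barcodes in every library.

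Sst (chr16:23889573-23890958, minus strand, GRCm38) encodes somatostatin and is a target of the cyclic AMP pathway. Its match to TGACGTCA is shown with the bases around it, since this is the only such match among the 5 promoters. It lies 48 bases before the RefSeq start. The gene interval given above is from GENCODE and reaches further upstream, so the stretch shown lies inside it.
Sst, chr16:23890874-23890903, minus strand: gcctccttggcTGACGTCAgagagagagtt
Sst stood at 9.32, 7.21, 22.1 and 47.7 CPM in Gad cells and at 0.549, 0.587, 0.375 and 0.363 CPM in the others. Most of it was in few barcodes: the richest one held 38 of 177 UMIs, 29 of 81, 94 of 160 and 90 of 148. In the order of the libraries 3.53%, 0.986%, 9.83% and 5.56% of Gad cells held any, so the levels of Sst rest on small numbers of cells and above all on 1 barcode in each library labelled GE. The ratio of Gad cells to the rest was 132 (44.1 to 645) in the library labelled GE E18.5, but its log2 value was -1.96 with the gate at 5 UMIs of Gad1 and Gad2. Its receptor Sstr2 stood at 5.13, 4.64, 290 and 49.9 CPM over all barcodes.

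Calb2 (chr8:110137502-110168210, minus strand, GRCm38) encodes calretinin, a calcium-binding protein. It stood at 6.13, 14.2, 0.574 and 4.94 CPM in Gad cells, highest in the library labelled cortex E18.5. Over all barcodes of the library labelled GE E15.5, 19 of its 30 UMIs were in a single barcode that held neither Gad1 nor Gad2. In Gad cells 4.24%, 4.08%, 2.31% and 2.43% held any, and the summed levels were below the 20 CPM minimum in every library.

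**Figure D2:**
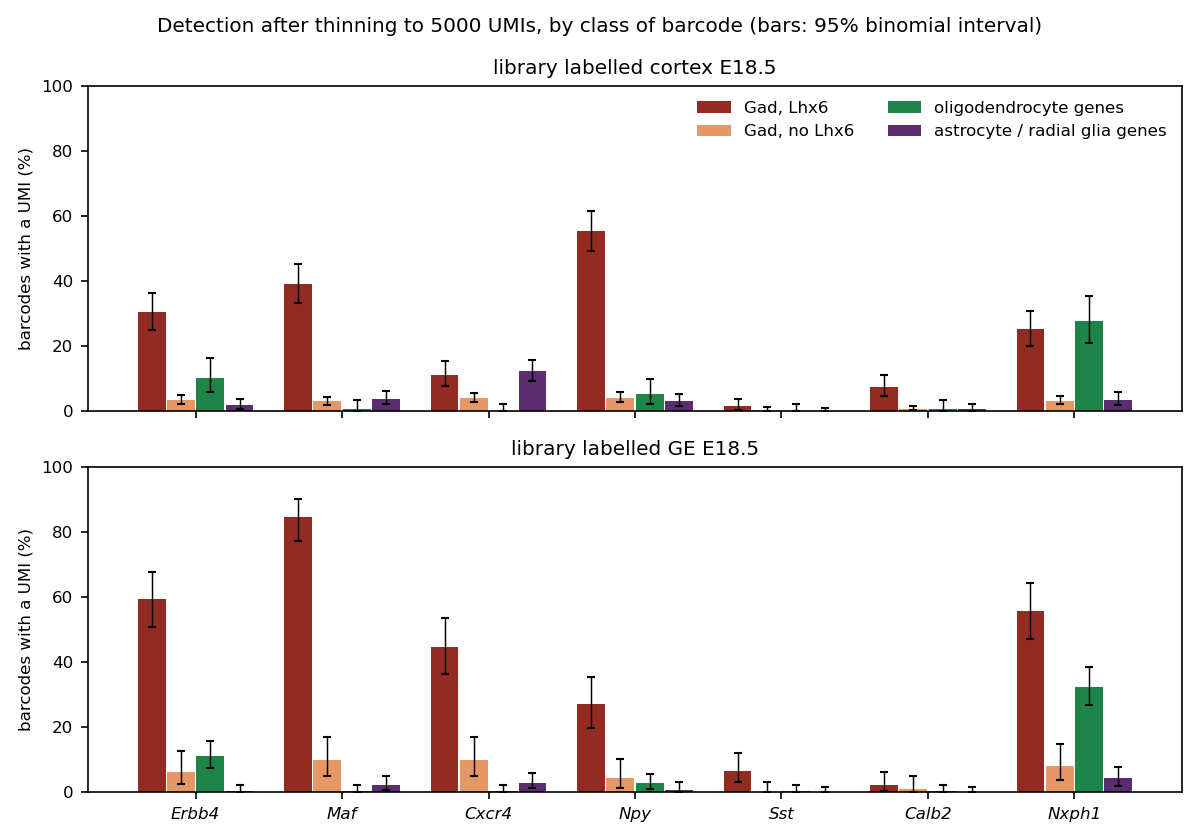
Share of barcodes with at least 1 UMI of each gene after thinning to 5000 UMIs, in Gad cells with and without Lhx6 and in barcodes with oligodendrocyte precursor genes or astrocyte and radial glia genes, for the 2 libraries of E18.5. Nxph1 reaches 27.7% and 32.5% of oligodendrocyte precursor gene barcodes, and Maf reaches 39.0% and 84.6% of Gad cells with Lhx6.

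The Gad cells of the 2 libraries of E18.5 were then compared with each other. Of 6 measured members all 6 differed at least 2-fold, while 6.8% of all measured genes did. This count leans on the minimum too. Sst and Cxcr4, at 7.21 and 15.7 CPM in the library labelled cortex, were measured only through that labelled GE. For Sst, reaching 20 CPM there already put it past 2-fold. Maf was 4.12-fold (3.77 to 4.50) higher in the library labelled GE, Cxcr4 3.89-fold (3.13 to 4.83), Nxph1 2.66-fold (2.31 to 3.05), Erbb4 2.03-fold (1.76 to 2.34) and Sst 6.62-fold (4.97 to 8.89). Npy went the other way in summed UMIs and was 3.40-fold (3.05 to 3.81) higher in the library labelled cortex. The share of Gad cells with Npy was close, however, at 21.1% in that labelled cortex and 21.2% in that labelled GE with gate and members thinned. On the log2 scale, as cortex over GE, the median of the 6 was -1.68, and that of all measured genes was -0.12. The direction held for Maf, from -3.01 to -1.49, for Cxcr4, from -2.79 to -1.56, and for Npy, from 0.67 to 3.08, in every alternative processing tried. After thinning Npy was 0.71, short of 2-fold. Erbb4 was -0.99 with all deposited barcodes kept, -0.82 with TMM scaling, -0.83 at a gate of 5 Gad UMIs and -0.47 in cells with both Gad1 and Gad2, also short of it, and Nxph1 was -0.96 in the last. The count of members past 2-fold ran from 4 to 7 over the alternatives. For Sst it was 2.36, the other direction, where Gad cells needed at least 5 UMIs of Gad1 and Gad2, and -2.06 without the richest barcode of each library. Markers of other cells moved with this comparison: in Gad cells the 8 glial genes summed to 2172 CPM in the library labelled cortex and 7066 in that labelled GE, with 6 of 6 measured ones lower in the former. The 8 excitatory genes summed to 18.9 and 453 CPM, with 5 of 5 lower. Microglial genes stood at 0.584 and 0.658 CPM and endothelial genes at 1.17 and 1.32. The part of glial and excitatory RNA in the members' differences was not tested. The part of the region, the library and the makeup of the Gad cells cannot be told apart.

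Over all barcodes of the same libraries 3 of 5 measured members differed 2-fold, against 5.16% of all genes. Npy was 4.88-fold higher in the library labelled cortex, and Maf and Nxph1 were 2.21-fold and 2.18-fold higher in that labelled GE. With TMM scaling the log2 ratios of Maf and Nxph1 were -0.99 and -0.97, so that Npy alone passed. In such whole-library values, fewer cells of a type and less RNA per cell cannot be told apart.

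Because Lhx6 marks the medial lineage, Gad cells were also split by at least 1 UMI of Lhx6, a comparison added after the data were seen. There were 442 such cells in the library labelled cortex E18.5 (median depth 5528 UMIs) and 161 in that labelled GE E18.5 (6035 UMIs). Of 7 measured members 5 differed at least 2-fold, against 9.19% of all genes. Npy stood at 1273 CPM in the library labelled cortex against 170 in that labelled GE, a 7.47-fold difference (6.64 to 8.43). Calb2 stood at 47.5 against 2.81 CPM, from 127 and 5 UMIs, a 16.9-fold difference (7.05 to 52.9). Npy and Calb2 were thus both higher in the library labelled cortex. Calb2 was measured only through that library, where reaching 20 CPM already put it past 2-fold. Maf stood at 274 against 557 CPM, 2.04-fold higher (1.85 to 2.24) in the library labelled GE, but short of 2-fold with TMM scaling (log2 -0.85), with all genes in the total (-0.99) and in cells with both Gad1 and Gad2 (-0.88). Cxcr4 stood at 33.7 against 86.6 CPM, 2.57-fold higher (1.97 to 3.38) there, and Sst at 25.8 against 81.5 CPM. Sst took the other direction, at 2.94 on the log2 scale, with the gate at 5 Gad UMIs and was at 0.18 in cells with both Gad1 and Gad2. Erbb4 was close, at 151 and 145 CPM, as was Nxph1, at 132 and 166 CPM.

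The 2 last varied with the processing and the measure used. On the log2 scale, as cortex over GE, Erbb4 ran from -1.15 to 0.23 and Nxph1 from -1.36 to -0.16 over the alternatives. As shares of thinned barcodes, 30.5% of 269 Gad cells with Lhx6 in the library labelled cortex held Erbb4 and 59.6% of 136 in that labelled GE did. For Nxph1 these shares were 25.3% and 55.9%, for Maf 39.0% and 84.6%, for Cxcr4 11.2% and 44.9%, and for Npy 55.4% and 27.2%. Only Npy and Calb2 (7.43% and 2.21%) of the 7 genes had the larger share in the library labelled cortex. Thinning left out the shallow barcodes, 442 falling to 269 in one library and 161 to 136 in the other. Glial and excitatory genes moved here as well, at 1905 and 30.7 CPM in the library labelled cortex against 7314 and 467 CPM in that labelled GE.

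Gad cells without Lhx6 numbered 978 and 127, with lower levels of the measured members. All 5 measured ones differed at least 2-fold, against 5.14% of all genes. Maf (22.2 against 84.9 CPM), Erbb4 (14.4 against 39.7), Nxph1 (15.1 against 57.2) and Cxcr4 (9.35 against 24.6) were higher in the library labelled GE. Of these, Erbb4, Nxph1 and Cxcr4 were measured only through that library. For Cxcr4, reaching 20 CPM there already put it past 2-fold. Npy (72.5 against 32.6 CPM) was higher in that labelled cortex. Sst was in none of the 127 cells of the library labelled GE, which allows a share of cells with a UMI of up to 2.36% at this depth and does not limit the share that expresses it. The direction of Maf, Cxcr4 and Npy was thus that of the cells with Lhx6, except that Cxcr4 stood at 0.82 on the log2 scale where Gad cells needed at least 5 UMIs.

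**Figure D3:**
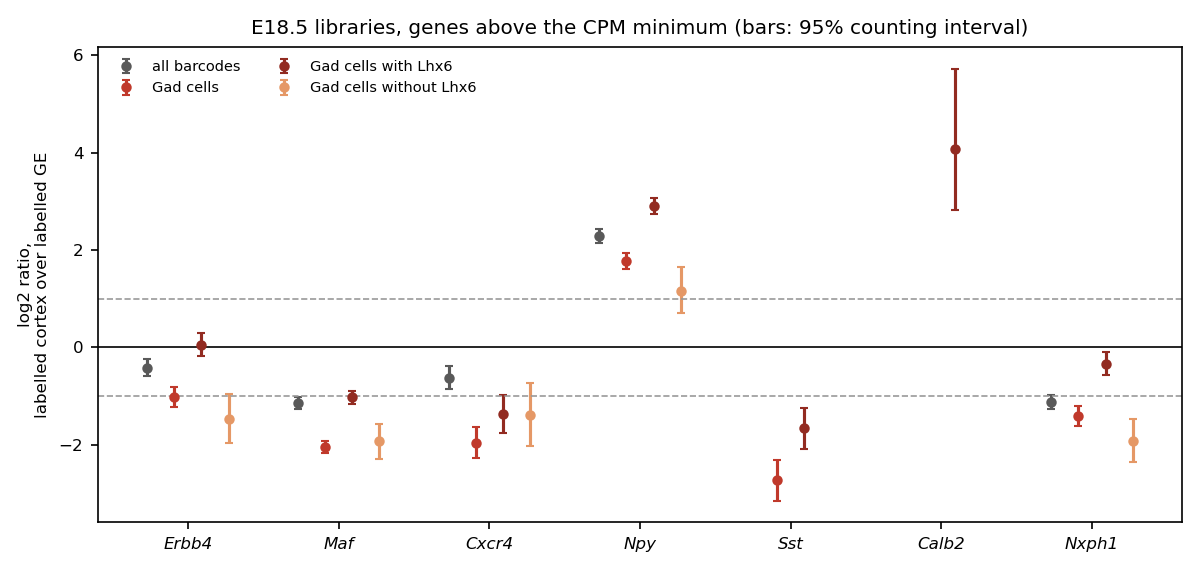
Log2 ratio of CPM, library labelled cortex over library labelled GE at E18.5, for all barcodes, Gad cells, and Gad cells with and without Lhx6, with 95% intervals. Npy lies above 0 and Maf and Cxcr4 below 0 in every pool; Erbb4 lies at 0.06 in Gad cells with Lhx6 and at -1.02 in all Gad cells.

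Other listed genes gave context for the Gad cells of E18.5, where 6.8% of all measured genes differed at least 2-fold either way. Of 17 ligands and receptors related to the members 6 were measured, of which 2, Nrg1 (log2 -1.83) and Sstr2 (-2.70), were lower in the library labelled cortex and none was higher. Of 29 genes of axon guidance and motility 17 were measured, 3 being higher in it (Slit1, 1.69, the ephrin Efna5, 1.55, and the kinase Pak3, 1.42) and 2 lower (the Eph receptor Epha5, -1.43, and the motility adaptor Elmo1, -1.5). Of 16 medial eminence genes 9 were measured, with Nkx2-1 (5.36) and Lhx8 (5.01) higher and none lower. Of 14 neuron maturation genes 12 were measured, with 4 lower in the library labelled cortex, among them Rbfox3 (-2.54), a nuclear protein of mature neurons, and Syt1 (-1.77), the calcium sensor of synaptic vesicles. The medians of these lists were -0.41 for the ligands and receptors, 0.36 for guidance, -0.42 for the medial eminence and -0.33 for maturation, beside -0.12 for all genes. Further lists moved as well: of 6 measured caudal eminence genes 3 were higher in the library labelled cortex and 2 lower. Higher there were also 3 of 12 measured lateral eminence genes, 3 of 13 general GABA genes and 2 of 10 dividing cell genes, with none lower.

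Within Gad cells the members sorted with lineage and state genes. In thinned Gad cells of the library labelled cortex E18.5, Npy was held by 47.0% of 234 cells with Nkx2-1 and by 8.53% of 867 without. Calb2 was held by 26 cells, of which 17 held Nkx2-1 and 17 held Lhx6. For the caudal factors the intervals of the Maf shares overlapped in this library: 9.33% (5.62 to 14.3) of cells with Prox1 held Maf against 12.3% (10.3 to 14.6) without, 6.31% against 12.4% for Nr2f2 and 5.08% against 12.2% for Sp8. In the library labelled GE E18.5 the cells with Prox1 or Sp8 were few and their intervals lay apart from those of the others: 4 of 19 cells with Prox1 held Maf, or 21.1% (6.05 to 45.6), against 53.7% (47.0 to 60.4) without. For Sp8 it was 2 of 17, or 11.8% (1.46 to 36.4), against 54.1% (47.5 to 60.7). For Nr2f2 the intervals overlapped there too: 4 of 11, or 36.4% (10.9 to 69.2), against 51.9% (45.3 to 58.5). Meis2, a factor of the lateral eminence and its projection neurons, split Maf further, with 5.66% of 813 cells with Meis2 against 29.2% of 288 without. These Maf shares were 25.2% of 135 and 82.9% of 111 in the library labelled GE E18.5, where Erbb4 was in 13.3% and 63.1%. All 9 Gad cells with Sst there held Lhx6. Of 8 such cells in each of the others, 5 did in that labelled cortex E15.5, 4 in cortex E18.5 and 6 in GE E15.5.

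The members were also rarer in dividing cells, those with at least 1 UMI of the proliferation genes Mki67 or Top2a. Maf was in 2.97% of 640 dividing Gad cells and in 24.1% of 461 others in the library labelled cortex E18.5. For Npy these shares were 6.41% and 31.0%, for Erbb4 4.38% and 18%, and for Nxph1 3.13% and 16.3%. In the library labelled GE E18.5, Maf was in 24.2% of 95 dividing Gad cells and in 68.2% of 151 others, and Npy in 5.26% and 24.5%. The direction was thus the same in both. The Cxcl12 receptor Ackr3 went with Maf, in 27.6% of 344 cells with Ackr3 against 4.62% of 757 in the library labelled cortex, and in 84.7% of 118 against 20.3% of 128 in that labelled GE.

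Members were also compared in pairs. A pair was counted where at least 10 thinned Gad cells held both genes and the share of cells with one gene was at least 2-fold higher among holders of the other than among non-holders, in the larger of both directions. Pairs of genes with fewer than 10 holders cannot be counted. In the library labelled cortex E18.5, 6 members had enough holders and 14 of their 15 pairs were counted, against 1.94% of the pairs of all genes with enough holders. In that labelled GE E18.5 it was 10 of 10 pairs of 5 members, against 3.07%. In that labelled cortex E15.5 it was 7 of 15, against 1.97%. In that labelled GE E15.5 no member pair could be counted, since no more than 6 cells held both genes of any, where 3.44% of all pairs were. The pairs of all genes were not matched to the members in how many cells hold them. General neuronal genes were also among those held most often with the members, as the genes most like each show. In the library labelled cortex E18.5, Npy was in 74.6% (66.2 to 81.8) of cells with Maf and in 8.96% of those without. It was also in 22 of the 26 Calb2 cells, a share of 84.6% (65.1 to 95.6) against 15.1%. Maf was in 56.8% of cells with Erbb4 and in 6.77% without. No cell held both Sst and Calb2 among the 8 Sst cells, which are too few to show whether these genes avoid each other. In the library labelled cortex E15.5, 1 of 8 Sst cells held Calb2, and 5 of 30 did without thinning.

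Among pairs with at least 10 cells in common in the library labelled GE E18.5, the largest ratios were those of Maf with Erbb4, Cxcr4, Npy and Nxph1. Maf was in 93.2% (85.8 to 97.5) of cells with Erbb4 and in 27.9% without. Cxcr4 was in 53.2% of cells with Maf against 4.17%, and Nxph1 in 57.9% against 10.0%. Npy was in 30.2% of cells with Maf against 3.33%, so fewer of the Maf cells held Npy than in the library labelled cortex. All 9 Sst cells held Maf. Of 8 Sst cells in each of the others, 2 did in that labelled cortex E15.5, 4 in cortex E18.5 and 3 in GE E15.5.

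**Figure D4:**
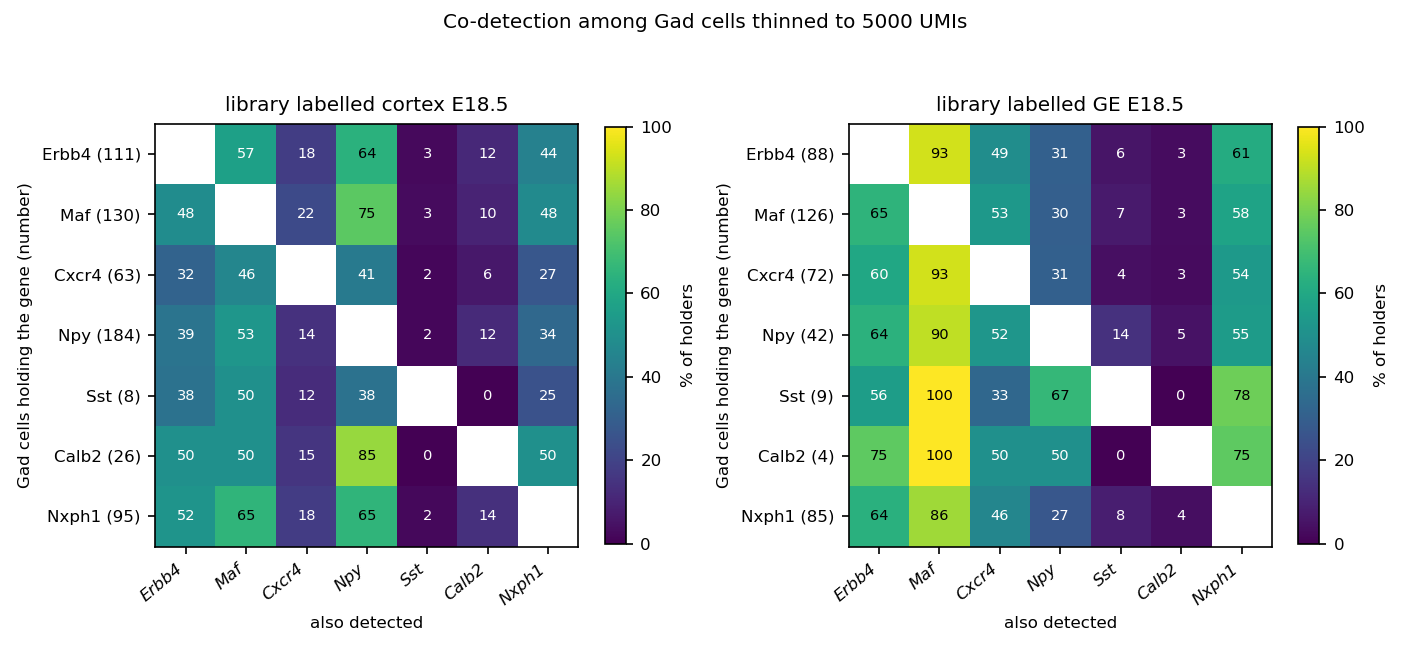
Share of Gad cells holding each member (columns) among those holding another (lines), in percent after thinning to 5000 UMIs, for the 2 libraries of E18.5. In the library labelled cortex Npy is in 74.6% of Maf cells, and in that labelled GE it is in 30.2%.

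The genes most like each member were named by the difference, in percentage points, between the share of holders and of non-holders of the member that held the gene, over the 1101 thinned Gad cells of the library labelled cortex E18.5. All points share library and depth. For Erbb4 these were Runx1t1 (54.0 points), Npy, Celf4 (52.3), Tubb2a and Epha5, of which Celf4 and Tubb2a are general neuronal genes. For Maf they were Npy (65.7 points), Runx1t1 (63.2), Epha5, Elmo1 and Dlgap1, and for Cxcr4 they were Maf (36.3), Gabbr1, Aplp1, Igfbp4 and Celf4. For Npy they were Lhx6 (58.7 points), Rnd2 (54.9), Runx1t1, Celf4 and Elmo1. For Calb2 they were Npy (69.6), Ina, Nbea, Aplp1 and Rnd2, and for Nxph1 Maf (58.5), Epha5, Npy, Elmo1 and Mef2c (50.5). Sst had too few holders. In the library labelled GE E18.5, which did not enter the choice, the first gene of each member gave 58.4 points for Erbb4, 26.8 for Maf, 59.2 for Cxcr4, 42.8 for Npy, 33.5 for Calb2 with 4 holders, and 53.0 for Nxph1. Npy with Maf was thus lower there, while Runx1t1 with Maf gave 70.2. Npy with Erbb4 gave 21.2 and with Nxph1 15.3, Ina with Calb2 5.37 and Rnd2 with Npy 0.42.

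**Figure D5:**
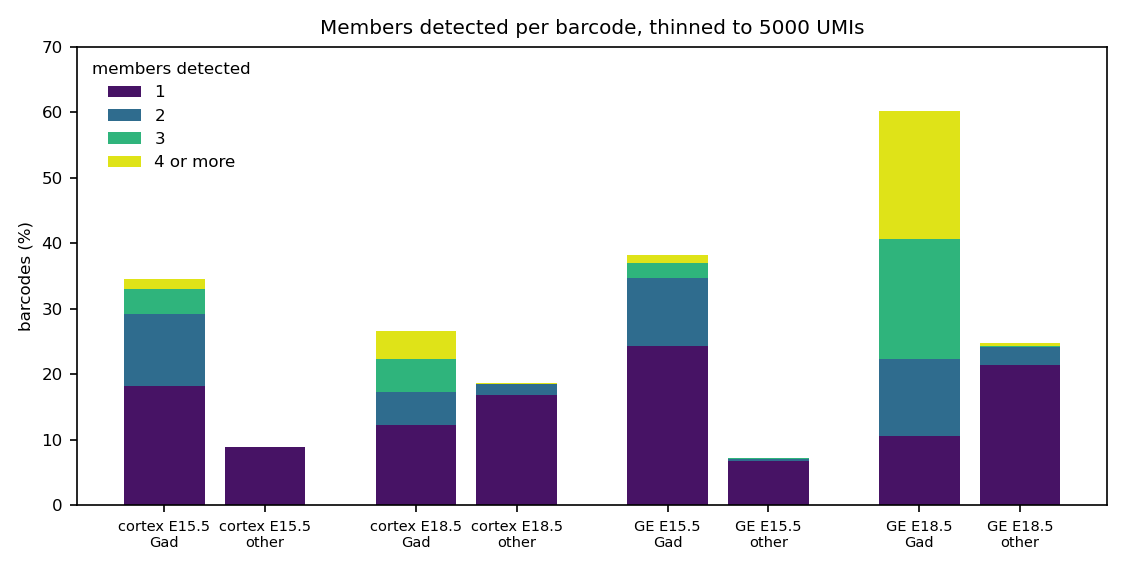
Number of the 7 genes held per barcode after thinning to 5000 UMIs, as a share of Gad cells and of the other barcodes in each library. Of Gad cells in the library labelled GE E18.5, 37.8% hold at least 3 members, against 5.29%, 9.26% and 3.47% in the other 3 libraries.

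Counted per barcode after thinning, 34.5%, 26.6%, 38.2% and 60.2% of Gad cells held at least 1 of the 7 genes. Of the other barcodes 8.79%, 18.7%, 7.17% and 24.8% did. At least 3 members were held by 5.29%, 9.26%, 3.47% and 37.8% of Gad cells and by 0%, 0.221%, 0.144% and 0.626% of the others. With the Gad gate thinned too, at least 1 member was held by 38.9%, 30.6%, 57.4% and 67.6% of Gad cells, so the library labelled GE E15.5 came near that labelled GE E18.5. For at least 3 members these shares were 6.60%, 11.8%, 5.56% and 49.7%, and the library labelled GE E18.5 was again the highest. Without the barcodes with Xist and Y-linked UMIs, at least 1 member was held by 69.0% of 29 Gad cells in the library labelled GE E15.5. In that labelled GE E18.5 it was 61.0% of 164, so the order turned. At least 3 members were then held by 13.8% and 45.1%.

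The ages were set against each other within each label, in which the depth also differs. In Gad cells of the libraries labelled GE, 6 of 6 measured members were higher at E18.5 than at E15.5, where 7.81% of all measured genes were. Maf was 6.07-fold higher, Erbb4 6.10-fold, Cxcr4 5.12-fold, Npy 4.70-fold, Nxph1 3.8-fold and Sst 2.16-fold. Of the 173 Gad cells at E15.5, 70.5% held UMIs of both Xist and Y-linked genes. Without those barcodes at both ages the log2 ratios were 1.91 for Maf, 1.71 for Erbb4, 1.61 for Cxcr4, 1.97 for Npy, 0.84 for Nxph1 and -0.78 for Sst, so Nxph1 fell below 2-fold and Sst turned. Other gene lists moved with the members in these Gad cells. The 8 excitatory genes summed to 3351 CPM at E15.5 and 453 at E18.5, with 7 of 7 measured ones lower at E18.5, and at E15.5 they stood at 3813 CPM in the barcodes without Gad1 and Gad2. Glial genes summed to 2745 and 7066 CPM, with 5 of 6 higher at E18.5, and the 13 general GABA genes, Gad1 and Gad2 among them, to 1114 and 3320 CPM, with 12 of 13 higher. The part of these in the members' differences was not tested. Over all barcodes 5 of 5 were higher, against 8.7% of genes, with Erbb4 at 6.52-fold and Nxph1 at 5.90-fold. These counts lean on the minimum as well. Over all barcodes of E15.5 Erbb4, Cxcr4 and Npy stood at 6.09, 7.18 and 8.62 CPM. Reaching 20 CPM at E18.5 thus already made each higher. Nxph1, at 11.8 CPM, and in Gad cells Erbb4 and Cxcr4, at 16.6 and 11.9 CPM, were likewise measured only through E18.5.

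In the libraries labelled cortex none of 4 measured members changed 2-fold over all barcodes, where 4.77% of genes did. In Gad cells Erbb4, at 2.20-fold, was the only 1 of 4 that was higher at E18.5, against 1.39% of all genes. Without the barcodes with Xist and Y-linked UMIs, which were 44% of Gad cells at E15.5 and 7.32% at E18.5, the log2 ratios were 1.93 for Erbb4, 1.64 for Maf, 1.75 for Npy and 0.86 for Nxph1. The count in Gad cells was then 3 in place of 1, and that over all barcodes 2 in place of 0. The shares of 1.39% and 4.77% were taken with those barcodes and do not apply to the counts of 3 and 2.

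Between the libraries of E15.5, 3 of 3 measured members were higher in the one labelled cortex over all barcodes, where 5.25% of genes were, with Npy at 20.4-fold, Nxph1 at 2.08-fold and Maf at 2.04-fold. Npy, at 8.62 CPM in that labelled GE, and Nxph1, at 11.8 CPM, were measured only through that labelled cortex. For Npy, reaching 20 CPM there already made it higher. Without the barcodes with Xist and Y-linked UMIs the log2 ratios were 3.56 for Npy, 0.14 for Nxph1 and -0.27 for Maf. In Gad cells 2 of 5 differed, against 11.6% of genes: Npy was 8.53-fold higher in the library labelled cortex and Sst 2.37-fold higher in that labelled GE. Sst, at 9.32 CPM in the former, was measured only through the latter, where reaching 20 CPM already put it past 2-fold. The Sst ratio was -0.24 on the log2 scale without the richest barcode of each library and 0.04 with the gate at 5 Gad UMIs. In these Gad cells the excitatory genes summed to 39.5 CPM in the library labelled cortex and 3351 in that labelled GE (7 of 7 lower in the former), the general GABA genes to 5252 and 1114 CPM (12 of 13 higher) and the dividing cell genes to 6939 and 2245 CPM (9 of 10 higher). The part of these in the members' differences was not tested. Without the barcodes with Xist and Y-linked UMIs 476 and 51 Gad cells were left, with Maf at 25.6 and 112.5 CPM, Erbb4 at 12.02 and 37.9, Nxph1 at 22.9 and 79.1, Cxcr4 at 7.85 and 24.5, and Npy at 108 and 35.6. As log2 ratios Npy was at 1.60, and Maf (-2.13), Erbb4 (-1.66) and Nxph1 (-1.79) were lower in the library labelled cortex, as they were in Gad cells at E18.5.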

How the data were processed

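The authors deposited raw counts of UMIs for each gene in each barcode. Per the submitters' processing notes the tools were Cell Ranger 1.3.1 and Seurat (no version) and the build was mm10; per the labels' protocols the libraries used the 10x Genomics 3' v2 kit. All deposited counts are whole numbers. No source used here gives the annotation release or the rule for calling cells. The members and lists were chosen with earlier results of these data known.

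Barcodes under 1000 detected genes or above 10% mitochondrial UMIs were left out (2, 35, 3 and 5, libraries in the order of the report), as were 11, 77, 6 and 11 doublet-like barcodes, the top 0.8% per 1000 barcodes by their share of simulated doublets among 20 neighbours. This left 28822551, 27552709, 30506586 and 14075595 UMIs. UMIs were summed per library and class and divided by totals without mitochondrial, ribosomal protein and haemoglobin genes. A gene was called at 2-fold with at least 20 CPM and 20 UMIs on 1 side. Intervals are exact Poisson for CPM, Clopper-Pearson for shares and conditional binomial for ratios. Cells did not serve as replicates. A share of 0 carries the limit that 3 counts allow.

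All 7 members were named, with the listed genes of largest change and the 5 genes most like each member with at least 20 holders. Alternatives covered cell filters, totals, edgeR 4.0.16 TMM scaling, the CPM minimum, thinning, the Gad gate and barcodes with Xist and Y-linked UMIs. The split by Lhx6, leaving out barcodes with Xist and Y-linked UMIs or each member's richest barcode, a Gad gate read after thinning, and the pair counts over all genes, were chosen after seeing the data. Scripts ran in Python 3.11.15 with numpy 2.4.6, scipy 1.17.1 and pandas 2.3.3, and the ratios were tested on simulated data. Positions are from GENCODE on GRCm38, promoters from RefSeq on GRCm38.p6.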

Additional observations from a re-analysis of the deposited data

Results flagged for a closer look

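Over all barcodes, 2 of the 7 genes differed at least 2-fold between the labelled regions in opposite directions at the 2 ages. The log2 ratio of Maf, library labelled cortex over GE, was 1.03 at E15.5 and -1.15 at E18.5. That of Nxph1 was 1.06 at E15.5 and -1.12 at E18.5. With 1 library per group the difference between the ages was not tested. At E15.5 the ratios were -0.27 for Maf and 0.14 for Nxph1 without the barcodes that held UMIs of both Xist and Y-linked genes.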

How the results depend on the processing

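No paired analysis was possible because each group held 1 library. The shares of all genes given above belong to the main processing, so counts under an alternative have no such share beside them. The counts of members past 2-fold that moved by over 1.5 times with the processing were as follows, and the cause was not tested. Against 0 in the libraries labelled cortex by age over all barcodes, 4 passed without the deepest barcodes or with cells averaged, 1 at a minimum of 5 CPM and 2 without barcodes holding Xist and Y-linked UMIs. Against 5 by age in those labelled GE, 2 passed at 50 CPM. Against 3 by region at E15.5, 1 passed without the deepest barcodes, at 50 CPM, thinned or with cells averaged, and 5 at 5 CPM. Against 3 by region at E18.5, 1 passed with TMM scaling, and 5 at 5 CPM or thinned. TMM moved all log2 ratios there by 0.16, and in Gad cells by 0.20.

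In Gad cells by age in the libraries labelled cortex, against 1, the count was 4 without the deepest barcodes or with cells averaged, 2 at 5 CPM or at a gate of 2 UMIs, 6 with Gad1 and Gad2 both, 5 at a gate of 5, 3 without barcodes holding Xist and Y-linked UMIs, and 0 at 50 CPM or thinned, gate included. By region at E15.5, against 2, it was 5 without the deepest, 6 without barcodes holding Xist and Y-linked UMIs and 1 with all genes in the total, at 50 CPM, at every stricter Gad gate, without the richest barcode or with the gate thinned. Gad cells against the rest gave 2 at 50 CPM in both libraries labelled cortex, and in that labelled GE E15.5 2 with all genes in the total and 1 at 50 CPM or with the gate thinned. By region at E18.5, against 6, it stayed between 4, with Gad1 and Gad2 both, and 7, at 5 CPM, with 5 under TMM. With Lhx6, against 5, 3 passed with Gad1 and Gad2 both, 4 under TMM, with all genes in the total or at 50 CPM, and 7 thinned. Without Lhx6, 3 passed at 50 CPM, 2 thinned and 1 at a gate of 5.

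The log2 ratio of Maf by region at E15.5 was -0.27 without barcodes holding Xist and Y-linked UMIs. At a gate of 5, Sst was -1.97 by age in the libraries labelled GE (-0.78 without barcodes holding Xist and Y-linked UMIs), 0.04 and 2.36 by region at E15.5 and E18.5, -1.96 for Gad cells against the rest in that labelled GE E18.5 and 2.94 with Lhx6 (0.18 with Gad1 and Gad2 both). Cxcr4 was 0.82 at that gate without Lhx6. The other ratios of members past 2-fold kept their direction under every alternative.

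The share of Gad cells with at least 1 member was 50.6%, 40.4%, 76.9% and 70.5%. It was 36.8%, 43.9% and 68.9% without the deepest barcodes in the first 3 libraries, and 34.5%, 26.6%, 38.2% and 60.2% thinned. It was 57.5%, 45.2%, 89.7% and 78.1% at a gate of 2, 78.4%, 65.2%, 98.2% and 92.8% with Gad1 and Gad2 both, and 72.4%, 58.8%, 97.2% and 78.1% at a gate of 5. At E15.5 it was 33.0% and 66.7% without barcodes holding Xist and Y-linked UMIs. With the gate thinned it was 38.9%, 30.6% and 57.4% in the first 3. Pairs past 2-fold with at least 10 cells in common, against 7, 14, 0 and 10 of 21, were 19 and 9 at E15.5 without thinning, and 13, 5 and 6 at 10000 UMIs in those labelled cortex E15.5, GE E15.5 and, at E18.5, GE. They were 4, 8 and 5 with Gad1 and Gad2 both in those labelled cortex E15.5, cortex E18.5 and GE E18.5, 9 and 6 at E18.5 at a gate of 5, and 4 in that labelled cortex E15.5 without barcodes holding Xist and Y-linked UMIs. Low depth limits Calb2 and Sst, and 1 library per group limits every comparison.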
